A study of Danio rerio with 6 samples.

Results

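The comparison described here sets *tars*-/- embryos injected with *gcn2* MO against sibling embryos injected with *perk* MO, the closest of the 15 pairs that can be formed from the 6 libraries of the study. Its members are the 67 genes, of 19194 analysed, that still lay at least 2-fold apart between these libraries. The study asked which branch of the eIF2α kinase network responds to the loss of Tars, and it sequenced RNA of whole zebrafish embryos at 36 hpf. The *tars*-/- embryos carry a nonsense mutation in *tars* from a mutagenesis screen, and the siblings come from the same litters and are labelled WT. The line was kept as heterozygotes, and whether heterozygous embryos are among the siblings is not stated, which bears on the sibling levels of *tars*. The 6 groups were *tars*-/- with *gcn2* MO, sibling with *perk* MO, *tars*-/- uninjected, sibling uninjected, *tars*-/- with *perk* MO and sibling with *gcn2* MO. Morpholinos (MO), antisense oligonucleotides that block the translation or splicing of an mRNA, were injected at the start of development, and all groups were raised in water with 0.045% phenylthiourea, which prevents pigmentation. Each group was sequenced as 1 library, so the pair has no replicates, no test was made, and every difference below is a description of these libraries. How many embryos each library pooled is not given in the sources used here.

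*tars* codes for threonyl-tRNA synthetase, the enzyme that loads threonine onto its tRNA. Uncharged tRNA activates the kinase Gcn2, which phosphorylates eIF2α and through Atf4 switches on the amino acid response (AAR), a set of genes for amino acid synthesis, amino acid transport and tRNA charging. Perk phosphorylates the same eIF2α when unfolded proteins gather in the endoplasmic reticulum (ER), as a branch of the unfolded protein response beside those of Ire1 and Atf6. The compared embryos therefore differ in genotype and also in which of the eIF2α kinases was targeted, and within this pair the effects of genotype and morpholino cannot be told apart. Since a morpholino acts on translation or splicing, the mRNA level of its target is no measure of the knockdown.

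The libraries held 29949451 to 47516784 reads assigned to genes, with 32161970 for *tars*-/- *gcn2* MO and 29949451 for sibling *perk* MO. Levels are given in CPM, the reads on a gene divided by all reads assigned in its library and brought to a common total, and 1 CPM stood for 32.2 reads in the *tars*-/- library and for 29.9 reads in the sibling library. Log2 ratios are of CPM + 0.5, *tars*-/- over sibling, which understates the ratio of low genes. Ratios without the added 0.5 are given with an exact binomial 95% interval, which covers counting error only and not the variation between pools of embryos.

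The transcriptomes of these embryos were alike over most genes. The median absolute log2 ratio was 0.14, and the 67 genes at least 2-fold apart made up 0.349% of those analysed. Of them, 47 were higher in *tars*-/- *gcn2* MO (0.245% of all genes analysed) and 20 were lower (0.104%). The next closest pair, *tars*-/- with *perk* MO and *tars*-/- uninjected, had 246 such genes, the uninjected *tars*-/- and sibling embryos had 322 (1.68% of all genes), *tars*-/- with *perk* MO and siblings with *gcn2* MO had 361 (1.88%), and the most distant pair had 1490. With a threshold of 1.5-fold, 759 genes were apart (3.95%), 543 higher and 216 lower. Past 3-fold, 8 genes were higher and 1, *tars*, was lower. The gene just inside the threshold was *sccpdha*, with 0.746 CPM in *tars*-/- *gcn2* MO and 2.0 CPM in sibling *perk* MO (log2 ratio −1.01), and the gene just outside was *apoa4b.3*, with 1.52 and 3.54 CPM in the same libraries (−0.997).

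**Figure D1:**
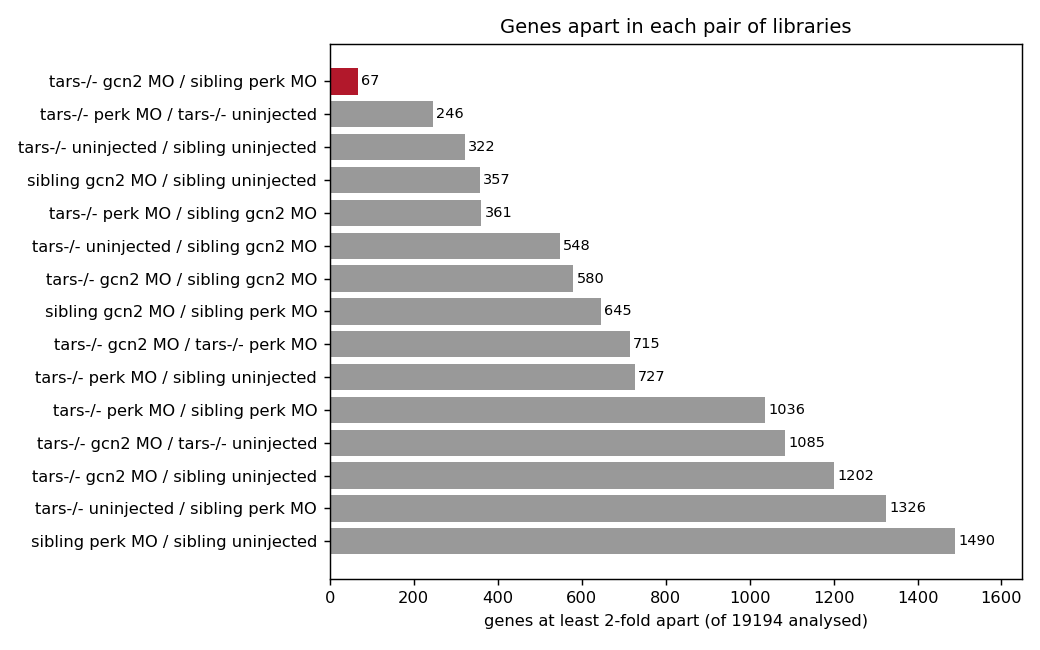
Number of genes at least 2-fold apart (horizontal axis, of 19194 analysed) for each of the 15 pairs of libraries, 1 bar per pair. The pair of *tars*-/- *gcn2* MO and sibling *perk* MO, in red, has 67 such genes and the next has 246.

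Most of the 67 genes were of low abundance. Their median level over the pair was 2.20 CPM, against 12.1 CPM for all genes analysed, and 51 of them had a mean under 5 CPM. The counting interval of the ratio lay beyond 1.5-fold for all 67, which says nothing of the spread between pools. The other 4 libraries were therefore used to place each gene. Both libraries of the pair lay outside the range of those 4 for 21 of the 67 genes, beside 42.0% of all genes analysed, only sibling *perk* MO did for 26 (15.3%), only *tars*-/- *gcn2* MO for 15 (12.5%) and neither for 5 (30.2%). Among the 47 genes higher in *tars*-/- *gcn2* MO, 21 had only sibling *perk* MO below that range, and 6 had only *tars*-/- *gcn2* MO above it. The share of all genes by direction is not given here. The 67 genes were chosen for lying far apart in these same libraries, so nothing is read from any of these counts.

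The other libraries form 2 further pairs of *tars*-/- and sibling embryos that share no library with this one. In the uninjected pair neither genotype carried a morpholino, and in the swapped pair *tars*-/- had *perk* MO and siblings had *gcn2* MO. A gene that differed with genotype alone would keep its direction in all 3 pairs. A gene that differed only with a morpholino acting alike in both genotypes would turn round in the swapped pair. A morpholino effect confined to a single genotype need not turn round, so the classes below assign no cause. Of the 67 genes, 15 were at least 1.5-fold apart in the same direction in both of these pairs. Another 4 were so in the uninjected pair only and 7 in the swapped pair only. A further 4 were at least 1.5-fold apart in the opposite direction in the swapped pair, and 37 fell into none of these classes. Of all genes analysed, 2.89% were 1.5-fold higher and 5.52% lower in the uninjected pair. In the swapped pair these shares were 4.25% and 2.35%. The 15 genes comprised 9 of the 47 higher ones, where 2.01% of all genes analysed were 1.5-fold higher in both pairs, and 6 of the 20 lower ones, where 0.683% were 1.5-fold lower in both. All 3 *tars*-/- libraries lay above all 3 sibling libraries for 9 members (3.61% of all genes) and below them for 8 (4.65%). These counts include the closest pair, whose order was fixed when the members were chosen, so nothing is read from them.

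**Figure D2:**
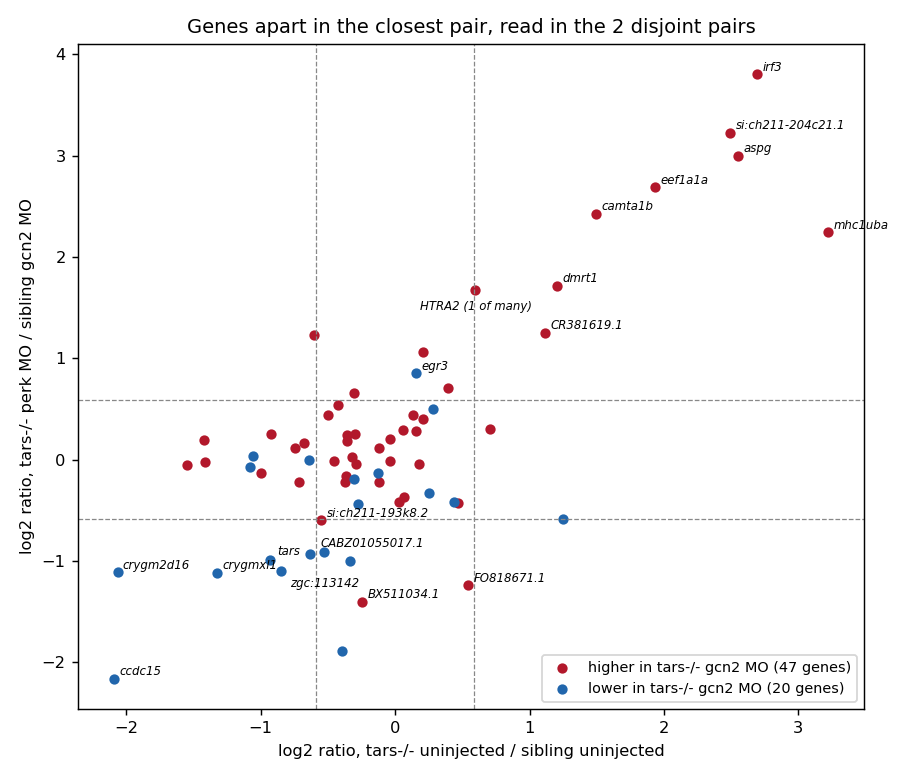
The 67 genes of the closest pair, with their log2 ratio in the uninjected pair (horizontal) and in the swapped pair (vertical), red for genes higher and blue for genes lower in *tars*-/- *gcn2* MO than in sibling *perk* MO. Dashed lines mark 1.5-fold, and named points are the 15 genes that kept their direction in both pairs and the 4 that turned round in the swapped pair, while most others lie near the centre.

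*tars* itself had the largest fall. It was at 21.3 CPM in *tars*-/- *gcn2* MO and 95.9 CPM in sibling *perk* MO, a ratio of 0.222 (0.204 to 0.241). In the uninjected pair it was at 37.3 CPM in *tars*-/- and 71.6 CPM in siblings, and in the swapped pair at 33.9 CPM in *tars*-/- and 68.1 CPM in siblings. All 3 mutant libraries were thus below all 3 sibling libraries, with the lowest and the highest level of the 6 in the closest pair. *eif2ak3*, the gene of Perk, was at 39.6 CPM in *tars*-/- *gcn2* MO and 37.5 CPM in sibling *perk* MO (log2 ratio 0.08). The gene of Gcn2 is not analysed here.

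The genes that were higher in *tars*-/- at least 2-fold in all 3 pairs numbered 8. The most abundant was *CR381619.1* (ENSDARG00000108852), a gene model named after a genomic clone. It had 400 CPM in *tars*-/- *gcn2* MO and 109 CPM in sibling *perk* MO, a ratio of 3.68 (3.54 to 3.83), beside 295 CPM in *tars*-/- and 136 CPM in siblings in the uninjected pair and 331 CPM in *tars*-/- *perk* MO and 139 CPM in sibling *gcn2* MO. The 3 mutant libraries were therefore all at least 2-fold above the 3 sibling libraries, and sibling *perk* MO was the lowest.

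Among these 8, *camta1b*, *aspg*, *eef1a1a*, *irf3*, *mhc1uba* and *si:ch211-204c21.1* had larger ratios in both other pairs than in the closest pair. *camta1b*, which codes for a calmodulin-binding transcription activator, was at 45.3 CPM in *tars*-/- *gcn2* MO and 21.5 CPM in sibling *perk* MO, 99.0 CPM in *tars*-/- uninjected and 34.8 CPM in sibling uninjected, and 135 CPM in *tars*-/- *perk* MO and 24.7 CPM in sibling *gcn2* MO. *aspg*, a homologue of asparaginase, which splits asparagine into aspartate and ammonia, was at 11.8 and 5.38 CPM in *tars*-/- *gcn2* MO and sibling *perk* MO, 60.0 and 9.84 CPM in *tars*-/- and sibling uninjected, and 77.4 and 9.24 CPM in *tars*-/- *perk* MO and sibling *gcn2* MO. *eef1a1a*, a copy of the elongation factor that brings aminoacyl-tRNA to the ribosome, was at 7.12 and 3.21 CPM in *tars*-/- *gcn2* MO and sibling *perk* MO, 40.4 and 10.2 CPM in *tars*-/- and sibling uninjected, and 41.5 and 6.02 CPM in *tars*-/- *perk* MO and sibling *gcn2* MO. In *camta1b*, *aspg* and *eef1a1a* the *tars*-/- library with *gcn2* MO was the lowest of the 3 mutants and sibling *perk* MO the lowest of the 3 siblings.

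*irf3*, a transcription factor of the interferon response, was at 1.99 CPM in *tars*-/- *gcn2* MO and 0.334 CPM, or 10 reads, in sibling *perk* MO. It was at 5.84 CPM in *tars*-/- and 0.480 CPM in siblings in the uninjected pair, and at 11.2 CPM in *tars*-/- *perk* MO and 0.339 CPM in sibling *gcn2* MO. The siblings were thus close to each other and the mutants spread over a wide range. *mhc1uba*, a class I major histocompatibility gene, was at 3.45 and 1.40 CPM in *tars*-/- *gcn2* MO and sibling *perk* MO, 17.4 and 1.42 CPM in *tars*-/- and sibling uninjected, and 6.69 and 1.02 CPM in *tars*-/- *perk* MO and sibling *gcn2* MO. This gene and *HTRA2 (1 of many)*, named after a mitochondrial protease, belong to families of near-identical copies between which reads can be split, so their levels are uncertain. *HTRA2 (1 of many)* had 8.61 CPM in *tars*-/- *gcn2* MO and 2.47 CPM in sibling *perk* MO, 10.6 and 6.85 CPM in *tars*-/- and sibling uninjected, and 9.03 and 2.49 CPM in *tars*-/- *perk* MO and sibling *gcn2* MO. It was above all siblings in every mutant, with its smallest difference in the uninjected pair (log2 ratio 0.59).

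The last of the 8, *dmrt1* and *si:ch211-204c21.1*, are neighbours of *tars*. In the gene order of the GRCz12tu assembly they lie 7 and 6 genes from it, on opposite sides. *dmrt1*, a transcription factor of gonad development, was at 5.85 and 2.1 CPM in *tars*-/- *gcn2* MO and sibling *perk* MO, 3.81 and 1.37 CPM in *tars*-/- and sibling uninjected, and 6.06 and 1.5 CPM in *tars*-/- *perk* MO and sibling *gcn2* MO. *si:ch211-204c21.1* carries the name *bdp1*, a subunit of the RNA polymerase III factor TFIIIB, in the gene name table. It was at 11.2 and 5.18 CPM in *tars*-/- *gcn2* MO and sibling *perk* MO, 8.43 and 1.09 CPM in *tars*-/- and sibling uninjected, and 16.9 and 1.36 CPM in *tars*-/- *perk* MO and sibling *gcn2* MO. In both genes sibling *perk* MO was the highest of the 3 siblings, by more in *si:ch211-204c21.1* than in *dmrt1*. Only 37 of the 67 genes could be placed in that assembly, 55.2%, which is under 80%, so a count of members near *tars* is void. The other placed members on the chromosome of *tars* were *arsk* (53 genes away), *sdccag3* (64) and *ccdc15* (197). The share of all genes that lie on that chromosome is not given here, so no excess is read from them. Whether linked sequence plays a part in these differences was not tested.

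The genes that were lower in *tars*-/- at least 2-fold in all 3 pairs were *ccdc15* and the γM-crystallins *crygm2d16* and *crygmxl1*, proteins of the fish lens. *ccdc15* was at 1.15 CPM in *tars*-/- *gcn2* MO and 3.47 CPM in sibling *perk* MO, 0.282 CPM in *tars*-/- and 2.83 CPM in siblings uninjected, and 0.105 CPM in *tars*-/- *perk* MO and 2.20 CPM in sibling *gcn2* MO. *crygm2d16* was at 1.12 and 3.27 CPM in *tars*-/- *gcn2* MO and sibling *perk* MO, 3.75 and 17.3 CPM in *tars*-/- and sibling uninjected, and 1.96 and 4.81 CPM in *tars*-/- *perk* MO and sibling *gcn2* MO. *crygmxl1* was at 0.560 and 1.90 CPM in *tars*-/- *gcn2* MO and sibling *perk* MO, 0.536 and 2.1 CPM in *tars*-/- and sibling uninjected, and 0.358 and 1.36 CPM in *tars*-/- *perk* MO and sibling *gcn2* MO. The genotypes did not overlap in *ccdc15* and *crygmxl1*, whereas in *crygm2d16* the uninjected mutant lay above sibling *perk* MO. γM-crystallins are near-identical copies too, so that reads can be split between them. The other genes that kept their fall in both pairs past 1.5-fold were *tars*, *zgc:113142* and *CABZ01055017.1*.

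**Figure D3:**
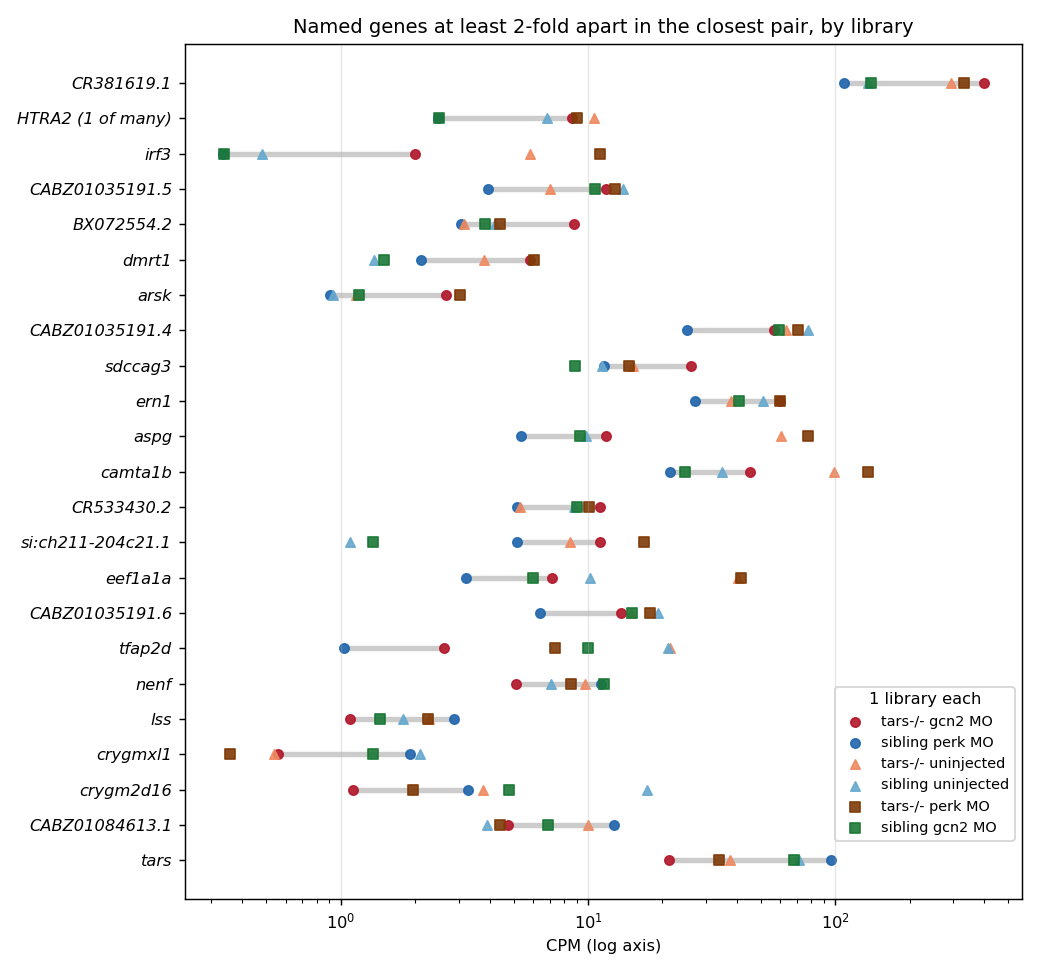
CPM (log axis) in each of the 6 libraries for the 23 named genes at least 2-fold apart in the closest pair, 1 point per library, with a grey bar joining *tars*-/- *gcn2* MO (red circle) to sibling *perk* MO (blue circle). In *tars* the 3 mutants lie at 21.3 to 37.3 CPM, all left of the siblings at 68.1 to 95.9 CPM, while *aspg*, *camta1b* and *eef1a1a* have 2 mutants far to the right of the red circle.

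The genes that turned round when the morpholinos were swapped were 3 of the 47 higher members and 1 of the 20 lower ones. Of all genes analysed, 2.35% were 1.5-fold lower and 4.25% higher in the swapped pair. All 4 were of low abundance. *egr3*, an immediate-early transcription factor, was at 0.808 CPM in *tars*-/- *gcn2* MO and 2.24 CPM in sibling *perk* MO, 3.02 CPM in *tars*-/- and 2.65 CPM in siblings uninjected, and 2.29 CPM in *tars*-/- *perk* MO and 1.05 CPM in sibling *gcn2* MO. The embryos with *gcn2* MO thus had the lowest levels in either genotype, and the other 4 libraries lay close together. The gene models *FO818671.1* and *BX511034.1* were among the 3 members that were higher in the closest pair and lower in *tars*-/- in the swapped pair. *FO818671.1* was at 4.76 and 1.44 CPM in *tars*-/- *gcn2* MO and sibling *perk* MO, 0.451 and 0.152 CPM in *tars*-/- and sibling uninjected, and 0.442 and 1.72 CPM in *tars*-/- *perk* MO and sibling *gcn2* MO. *BX511034.1* was at 2.3 and 0.568 CPM in *tars*-/- *gcn2* MO and sibling *perk* MO, 0.902 and 1.16 CPM in *tars*-/- and sibling uninjected, and 0.0842 and 1.05 CPM in *tars*-/- *perk* MO and sibling *gcn2* MO. Both had a higher level with *gcn2* MO than with *perk* MO in either genotype, though *BX511034.1* was about level between sibling *gcn2* MO and sibling uninjected. In *FO818671.1* the siblings with either morpholino differed little (1.72 and 1.44 CPM), and both were well above sibling uninjected (0.152 CPM). *si:ch211-193k8.2* had 39 reads in *tars*-/- *gcn2* MO and 1 read in sibling *perk* MO, a ratio of 36.3 with an interval of 6.15 to 1471, and it was at 0.821 CPM in *tars*-/- *perk* MO and 1.5 CPM in sibling *gcn2* MO.

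The largest group, 37 genes, was apart in the closest pair without a 1.5-fold difference in the same direction in either other pair or in the opposite direction in the swapped pair. Of these 37, 9 were at least 1.5-fold apart in the opposite direction in the uninjected pair. Of all genes analysed, 5.52% were 1.5-fold lower and 2.89% higher in that pair. The 9 include *CABZ01035191.1*, *CABZ01035191.2*, *CABZ01035191.3* and *CABZ01035191.5*, which may be pieces of the same transcript. The most abundant of the 37 with a known role was *ern1*, which codes for Ire1, the ER sensor that splices *xbp1* mRNA. It was at 59.7 CPM in *tars*-/- *gcn2* MO and 27.0 CPM in sibling *perk* MO, a ratio of 2.21 (2.03 to 2.4). It was at 37.8 CPM in *tars*-/- and 50.9 CPM in siblings uninjected, and at 59.7 CPM in *tars*-/- *perk* MO and 40.8 CPM in sibling *gcn2* MO. Sibling *perk* MO had the lowest level of the 6, and the mutant of the closest pair lay beside *tars*-/- *perk* MO.

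All 6 gene models named after the contig *CABZ01035191* were members, and all 6 were higher in *tars*-/- *gcn2* MO. The most abundant, *CABZ01035191.4*, was at 56.7 CPM in *tars*-/- *gcn2* MO and 25.0 CPM in sibling *perk* MO (ratio 2.26, 2.08 to 2.47), beside 63.0 and 77.5 CPM in *tars*-/- and sibling uninjected and 70.9 and 59.24 CPM in *tars*-/- *perk* MO and sibling *gcn2* MO. Here too sibling *perk* MO was the lowest of the 6 libraries. The other 5 models had log2 ratios of 1.03 (*CABZ01035191.6*) to 1.62 (*CABZ01035191.3*), and in the uninjected pair all 6 ratios were below 0, between −1.55 and −0.30. Gene models that share a contig may be pieces of the same transcript, so they count as less than 6 separate observations. Gene models named after a clone or contig made up 27 of the 67 members, or 40.3%, against 7.56% of the genes analysed.

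Other members with a known role had mostly low counts. The potassium channel genes *kcna2b* and *kcnq5a*, the synaptotagmin *syt14a*, the immunoglobulin superfamily gene *igsf9bb* and the inner ear phosphatase *ptprq* were higher in *tars*-/- *gcn2* MO, with log2 ratios between 1.09 and 1.3, and none exceeded 3 CPM in either library of the pair. In all 5, sibling *perk* MO had the lowest level of the 6 libraries. In all but *kcna2b*, *tars*-/- *gcn2* MO also had the highest. Also higher were the kinase *akt3a* (1.1), the chromatin organiser *satb1b* (1.09), the catechol-O-methyltransferase *comta* (1.06) and the actin nucleator *spire2* (1.11). The kainate receptor *grik1a* and the opioid precursor *penka* were lower instead (−1.08 and −1.04). *grik1a* was at 0.653 and 1.94 CPM in *tars*-/- *gcn2* MO and sibling *perk* MO, 0.987 and 1.64 CPM in *tars*-/- and sibling uninjected, and 0.821 and 1.98 CPM in *tars*-/- *perk* MO and sibling *gcn2* MO, so that the 3 mutants lay below the 3 siblings. *nenf*, the precursor of the secreted factor neudesin, was at 5.10 and 11.3 CPM in *tars*-/- *gcn2* MO and sibling *perk* MO, 9.76 and 7.05 CPM in *tars*-/- and sibling uninjected, and 8.54 and 11.6 CPM in *tars*-/- *perk* MO and sibling *gcn2* MO, with the lowest level in the mutant of the closest pair and no fixed order of the genotypes.

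Genes higher in *tars*-/- in the other pairs, and those lower in the swapped pair, kept a small part of that difference here. Genes lower in the uninjected pair kept almost none of it as a set. In the uninjected pair 213 genes were 2-fold higher in *tars*-/-, and they had a median log2 ratio of 1.4 there and of 0.33 in the closest pair, and 184 of them were higher in it. Of these 213, 40 (18.8%) were at least 1.5-fold higher in the closest pair, against 2.83% of all genes, and 3 were 1.5-fold lower. The 321 genes 2-fold higher in the swapped pair gave a similar picture, with a median of 0.32, 62 genes (19.3%) at least 1.5-fold higher and 4 lower. The 109 genes 2-fold lower in *tars*-/- in the uninjected pair had a median of −0.02, and 58 of them were lower in the closest pair. Of these 109, 15 (13.8%) were at least 1.5-fold lower and 9 higher, beside 1.13% of all genes that were 1.5-fold lower. For the 40 genes 2-fold lower in the swapped pair the median was −0.32, with 15 (37.5%) at least 1.5-fold lower and 2 higher. Read the other way, the 47 members higher in the closest pair had a median log2 ratio of −0.12 in the uninjected pair, where 10 were at least 1.5-fold higher (2.89% of all genes) and 9 lower (5.52%). In the swapped pair their median was 0.21, with 13 at least 1.5-fold higher (4.25%) and 3 lower (2.35%). The 20 lower members had medians of −0.46 in the uninjected and −0.51 in the swapped pair, with 9 at least 1.5-fold lower and 1 higher in each, beside the same backgrounds. The median over all genes was 0.04 in the closest pair, −0.11 in the uninjected pair and −0.03 in the swapped pair. With TMM factors, a scaling that centres most genes, these medians were −0.004, 0.001 and 0.001.

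The AAR genes, which were strongly apart between the genotypes in the other pairs, were little apart here. None of the 53 AAR genes analysed was 2-fold apart in the closest pair, 11 were at least 1.5-fold higher and 0 were 1.5-fold lower (background 2.83% and 1.13%). Their median log2 ratio was 0.35, against 1.45 in the uninjected pair and 1.79 in the swapped pair, where 33 and 37 genes were at least 2-fold higher (1.11% and 1.67% of all genes). The summed level of the list was 5112 CPM in *tars*-/- *gcn2* MO and 4196 CPM in sibling *perk* MO, between the 9606 and 9988 CPM of the other mutants and the 3498 and 3066 CPM of the other siblings. The list came from textbook knowledge of the response, with earlier results of these libraries known.

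The largest AAR ratios were in *slc7a11*, *stc2a*, *sesn2* and *slc1a4*, with log2 ratios of 0.94, 0.89, 0.87 and 0.84. *stc2a*, the hormone stanniocalcin 2, was at 30.4 CPM in *tars*-/- *gcn2* MO and 16.2 CPM in sibling *perk* MO, 155 and 11.6 CPM in *tars*-/- and sibling uninjected, and 129 and 11.9 CPM in *tars*-/- *perk* MO and sibling *gcn2* MO. *sesn2*, an inhibitor of mTORC1 that senses leucine, was at 18.9 and 10.2 CPM in *tars*-/- *gcn2* MO and sibling *perk* MO, 107 and 11.4 CPM in *tars*-/- and sibling uninjected, and 97.9 and 6.87 CPM in *tars*-/- *perk* MO and sibling *gcn2* MO. *slc1a4*, a transporter of neutral amino acids, was at 120 and 66.8 CPM in *tars*-/- *gcn2* MO and sibling *perk* MO, 536 and 79.9 CPM in *tars*-/- and sibling uninjected, and 526 and 57.3 CPM in *tars*-/- *perk* MO and sibling *gcn2* MO. In all of them *tars*-/- *gcn2* MO lay above every sibling and far below both other mutants. *slc7a11*, the cystine-glutamate exchanger, had only 1.80 and 0.701 CPM in the closest pair.

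The transcription factors of the response differed less than these largest ratios. *atf5b* (log2 ratio 0.62) and *ddit3* (0.54) were still above the list median of 0.35. *atf4b* was at 792 CPM in *tars*-/- *gcn2* MO and 620 CPM in sibling *perk* MO (ratio 1.28, 1.25 to 1.3), beside 745 and 303 CPM in *tars*-/- and sibling uninjected and 661 and 212 CPM in *tars*-/- *perk* MO and sibling *gcn2* MO. In *atf4b* *tars*-/- *gcn2* MO thus had the highest level of the 6, and sibling *perk* MO stood well above the other siblings. Its paralogue *atf4a* was at 708 CPM in *tars*-/- *gcn2* MO and 654 CPM in sibling *perk* MO (log2 ratio 0.11). It was higher in the other mutants, at 864 CPM in *tars*-/- uninjected and 825 CPM in *tars*-/- *perk* MO. The other siblings had 518 CPM (uninjected) and 455 CPM (*gcn2* MO). In *atf5b* sibling *perk* MO was again the highest sibling, while *tars*-/- *gcn2* MO was the lowest mutant, with 156 and 101 CPM in *tars*-/- *gcn2* MO and sibling *perk* MO, 201 and 32.4 CPM in *tars*-/- and sibling uninjected, and 228 and 25.4 CPM in *tars*-/- *perk* MO and sibling *gcn2* MO. *ddit3*, the pro-apoptotic factor Chop, was at 59.6 and 40.9 CPM in *tars*-/- *gcn2* MO and sibling *perk* MO, 66.4 and 19.8 CPM in *tars*-/- and sibling uninjected, and 47.3 and 9.19 CPM in *tars*-/- *perk* MO and sibling *gcn2* MO. *asns*, asparagine synthetase, was at 88.2 and 69.8 CPM in *tars*-/- *gcn2* MO and sibling *perk* MO, 223 and 51.0 CPM in *tars*-/- and sibling uninjected, and 298 and 53.9 CPM in *tars*-/- *perk* MO and sibling *gcn2* MO, so that in this enzyme gene the mutant of the closest pair lay nearer to the siblings than to the other mutants.

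**Figure D4:**
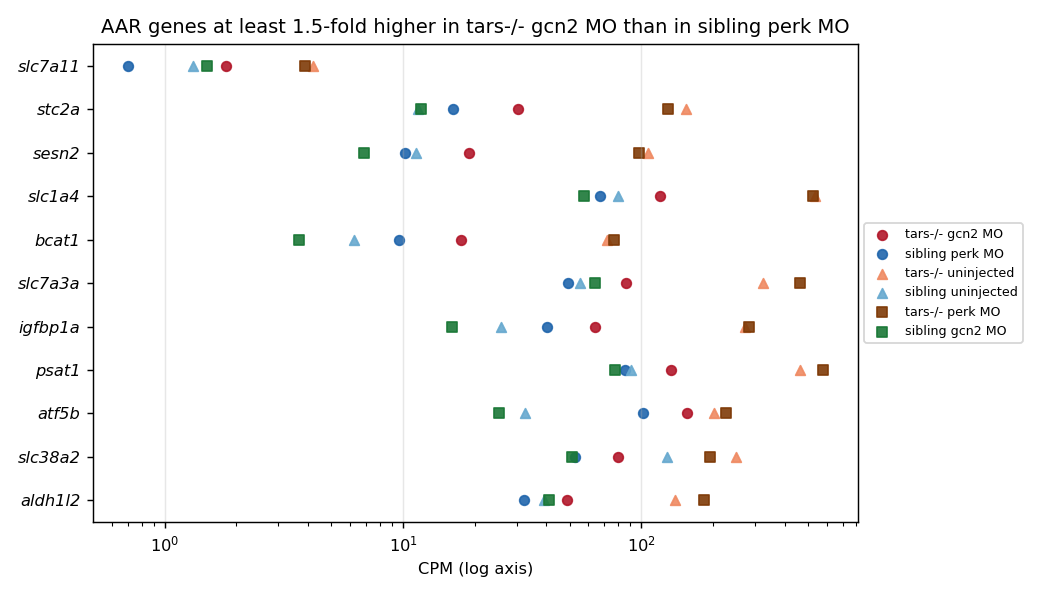
CPM (log axis) in the 6 libraries for the 11 AAR genes at least 1.5-fold higher in *tars*-/- *gcn2* MO than in sibling *perk* MO. In *stc2a* the red circle (*tars*-/- *gcn2* MO, 30.4 CPM) lies between the siblings at 11.6 to 16.2 CPM and the other mutants at 129 and 155 CPM, and most of the other genes have the same order.

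The 21 genes of the other cytosolic aminoacyl-tRNA synthetases, leaving out *tars*, were nearly level in the closest pair. Their median log2 ratio was 0.15, beside 0.04 over all genes, and 20 of 21 were above 0. None was 2-fold apart, against 13 and 17 that were 2-fold higher in the uninjected and the swapped pair (1.11% and 1.67% of all genes). Only *nars*, the asparaginyl enzyme, passed 1.5-fold, where 2.83% of all genes were 1.5-fold higher. It was at 229 CPM in *tars*-/- *gcn2* MO and 143 CPM in sibling *perk* MO, 610 and 131 CPM in *tars*-/- and sibling uninjected, and 733 and 123 CPM in *tars*-/- *perk* MO and sibling *gcn2* MO. The summed level of the list was 2894 CPM in *tars*-/- *gcn2* MO and 2441 CPM in sibling *perk* MO. These sums lay between those of the other mutants, 4344 and 5467 CPM, and those of the other siblings, 1719 and 1836 CPM. The 14 mitochondrial synthetase genes had a median of 0.02 and none passed 1.5-fold.

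Few genes of the ER stress response passed 1.5-fold, and most were slightly lower in *tars*-/- *gcn2* MO. Of 38 genes for ER chaperones and ER-associated degradation, the median log2 ratio was −0.14, and 10 were above 0. The median of the list was −0.28 in both the uninjected and the swapped pair. Over all genes the medians were 0.04, −0.11 and −0.03 in the closest, uninjected and swapped pair. *ern1* (1.13) was the only gene past 1.5-fold upward and *dnajb9b* (−0.75), an ER co-chaperone, the only one downward. Of all genes analysed, 2.83% were 1.5-fold higher and 1.13% lower, and these shares also stand beside the counts that follow. Among the 7 genes of eIF2α kinases, eIF2α and its phosphatase subunits, none passed 1.5-fold, and *eif2s1b*, which codes for eIF2α, was at 178 CPM in *tars*-/- *gcn2* MO and 168 CPM in sibling *perk* MO. The 55 genes of RNA decay had a median of 0.04, with none past 1.5-fold.

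The lens and the eye held members in opposite directions. Of 48 lens genes analysed, 2 were 2-fold lower, the crystallins above, 7 were at least 1.5-fold lower and 1, *crygm2d6*, was at least 1.5-fold higher (background 1.13% lower, 2.83% higher). *crygm2d18* was at 19.4 and 34.2 CPM in *tars*-/- *gcn2* MO and sibling *perk* MO, 29.0 and 62.2 CPM in *tars*-/- and sibling uninjected, and 12.8 and 37.9 CPM in *tars*-/- *perk* MO and sibling *gcn2* MO. The median of the lens list was −0.08 in the closest pair, −0.55 in the uninjected pair and −0.41 in the swapped pair. The summed level of the lens list was 3428 CPM in *tars*-/- *gcn2* MO and 3620 CPM in sibling *perk* MO. Where lens genes were lower, fewer lens cells and less RNA per cell cannot be told apart in whole embryos.

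Of 27 retina and pineal genes, 5 were at least 1.5-fold higher (2.83% of all genes) and none lower. The median log2 ratio of the list was 0.06, about that of all genes (0.04), and 17 of the 27 were above 0. *tfap2d*, an AP-2 transcription factor, was at 2.61 and 1.04 CPM in *tars*-/- *gcn2* MO and sibling *perk* MO, 21.4 and 21.0 CPM in *tars*-/- and sibling uninjected, and 7.34 and 9.98 CPM in *tars*-/- *perk* MO and sibling *gcn2* MO. *atoh7*, which retinal ganglion cells require, was at 5.66 and 2.87 CPM in *tars*-/- *gcn2* MO and sibling *perk* MO, 22.1 and 25.8 CPM in *tars*-/- and sibling uninjected, and 10.6 and 13.3 CPM in *tars*-/- *perk* MO and sibling *gcn2* MO. In both genes the libraries of the closest pair were the lowest of the 6, and sibling *perk* MO was the lower of them. The rod opsin gene *rho* and the photoreceptor factor *six7* had 2 reads each in sibling *perk* MO, and their ratios had intervals of 2.13 to 78.3 and 2.01 to 74.5. The summed level of the retina and pineal list was 184 CPM in *tars*-/- *gcn2* MO and 170 CPM in sibling *perk* MO, against 201 to 406 CPM in the other 4 libraries.

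Cholesterol synthesis genes held the member *lss*, lanosterol synthase. It was at 1.09 CPM in *tars*-/- *gcn2* MO and 2.87 CPM in sibling *perk* MO, 2.28 and 1.80 CPM in *tars*-/- and sibling uninjected, and 2.25 and 1.44 CPM in *tars*-/- *perk* MO and sibling *gcn2* MO. Its neighbours in the pathway *sqlea* (squalene epoxidase, log2 ratio −0.83), *fdft1* (squalene synthase, −0.74) and *cyp51* (lanosterol demethylase, −0.70) were also at least 1.5-fold lower, 4 of 22 genes analysed (background 1.13%), and none was 1.5-fold higher (2.83%). The median of the list was −0.10. In *lss* and *cyp51* sibling *perk* MO had the highest level of the 6 libraries, with *cyp51* at 14.9 CPM in *tars*-/- *gcn2* MO and 24.4 CPM in sibling *perk* MO, against 14.4 to 17.5 CPM in the others.

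Of the interferon response list, 8 of 22 genes passed the abundance minimum, with *irf3* the only one past 1.5-fold and *irf7* next (0.52). Among 42 muscle genes, the giant sarcomere proteins *ttn.1* and *ttn.2* had log2 ratios of 0.92 and 0.81. *ttn.1* was at 879 CPM in *tars*-/- *gcn2* MO and 466 CPM in sibling *perk* MO, 483 and 621 CPM in *tars*-/- and sibling uninjected, and 768 and 688 CPM in *tars*-/- *perk* MO and sibling *gcn2* MO. Its highest level was in *tars*-/- *gcn2* MO and its lowest in sibling *perk* MO, near *tars*-/- uninjected, with no fixed order of the genotypes. The fast troponin *tnni2a.2* was lower (−0.74), and the median of the muscle list was −0.01. Among 19 blood genes the globins *hbbe2* (0.83) and *hbae5* (0.61) were at least 1.5-fold higher (background 2.83%), and the median of the list was 0.02. *hbbe2* was also higher in *tars*-/- in both other pairs, with log2 ratios of 0.91 and 0.80.

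**Figure D5:**
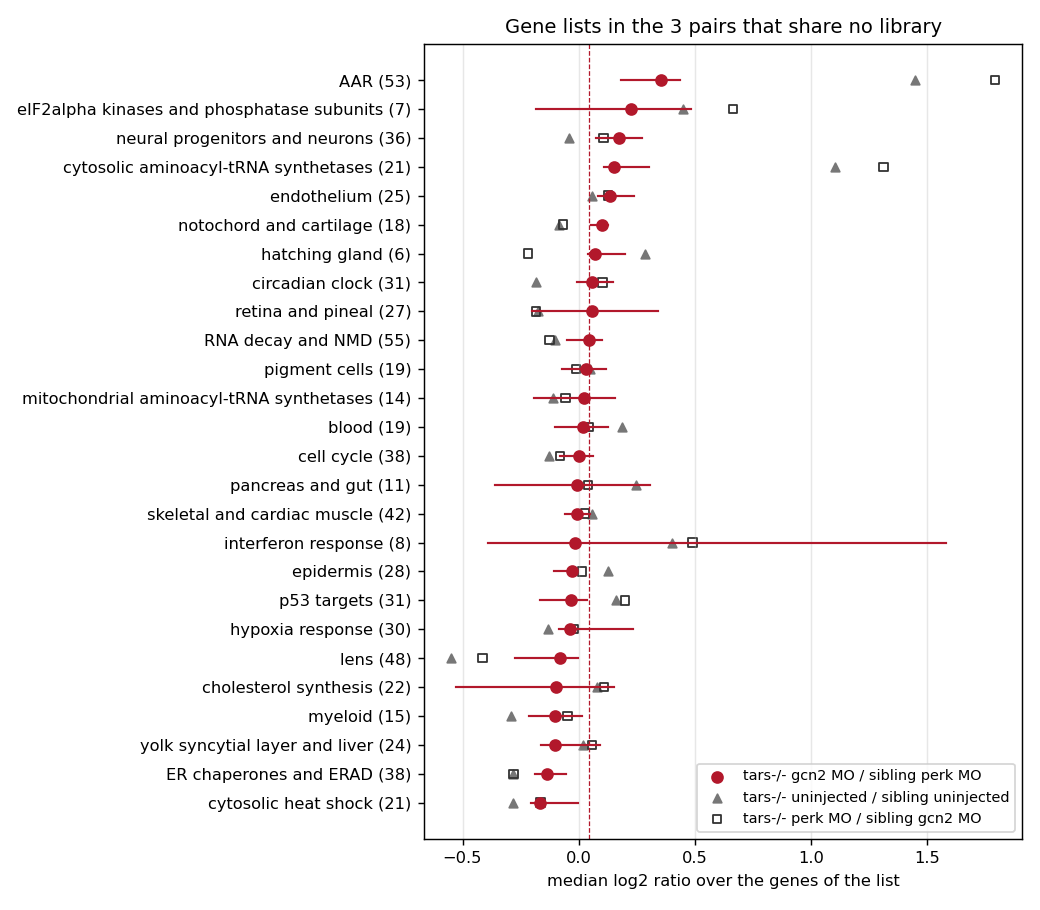
Median log2 ratio (horizontal axis) of the 26 gene lists in the closest pair (red, with the 95% binomial interval of the median over the genes, which are not independent replicates), the uninjected pair (grey triangles) and the swapped pair (open squares), with the number of genes in brackets and the median of all genes as a dashed line. The AAR median is 0.35 in the closest pair, against 1.45 and 1.79 in the other pairs, and the synthetase median is 0.15, against 1.1 and 1.31.

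On several lists the closest pair was alike and lay apart from the other 4 libraries, and those below are examples. Such a position was common, since both libraries lay outside the range of the other 4 for 42.0% of all genes analysed. The ER list, for instance, summed to 2705 CPM in *tars*-/- *gcn2* MO and 2891 CPM in sibling *perk* MO, against 3243 to 3889 CPM elsewhere. The 31 p53 target genes, which arrest or kill damaged cells, summed to 4731 CPM in *tars*-/- *gcn2* MO and 4878 CPM in sibling *perk* MO, against 1662 to 2628 CPM in the other libraries, and their median log2 ratio within the pair was −0.03. The 6 hatching gland genes summed to 7759 and 7238 CPM in *tars*-/- *gcn2* MO and sibling *perk* MO, against 1913 to 4211 CPM elsewhere, with a median of 0.07. The 36 genes of neural progenitors and neurons summed to 3622 and 3201 CPM in *tars*-/- *gcn2* MO and sibling *perk* MO, against 4652 to 5494 CPM. Of these, 31 were above 0 in log2 ratio, with a median of 0.17 beside 0.04 over all genes. The part of these shared levels in the 67 genes was not tested.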

How the data were processed

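Total RNA of whole embryos was sequenced on an Illumina HiSeq platform, with 1 library per condition. The authors aligned the reads to GRCz10 with HISAT2 2.0.5 and counted reads on the genes of Ensembl release 91 with HTSeq 0.9.1, and SAMtools 1.7 is named in the submitters' processing notes. They deposited, per library, the raw count of each of 34326 genes and the FPKM, which equalled count over gene length and library total (relative deviation at most 5.03e-06) and was not tested. Whether counting used strand is not given in the sources used here.

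Here counts were scaled by library totals to CPM, genes whose CPM averaged 1 or more across all libraries were kept (19194), and log2(CPM + 0.5) was compared, with a 2-fold threshold in the closest pair and 1.5-fold in the other pairs (Python 3.11.15, pandas 2.3.3, scipy 1.17.1). With no replicates in the pair, no p-value was computed. Intervals are exact Clopper-Pearson 95% intervals of the count ratio. The procedure was tested on simulated data with counting error only, which says nothing of the variation between pools of embryos. Alternatives were edgeR 4.0.16 TMM factors, DESeq2 1.42.0 size factors, other pseudocounts, minima and thresholds, and thinning to equal depth. Gene order came from RefSeq GRCz12tu, and no coordinates are given.

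The members and the 26 gene lists were chosen with earlier results of these data known. The naming rule covered *tars*, the kinase genes, members in a list or near *tars*, and the 4 largest ratios of each list described. It also covered up to 15 rises and 15 falls among members with at least 5 CPM, of which there were 13 and 3. Not every gene under this rule is described in the text. Further members and list genes are named that were chosen after their values were seen.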

Additional observations from a re-analysis of the deposited data

Results flagged for a closer look

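When each morpholino is held constant, 3 of the genes apart in the closest pair had *tars*-/- to sibling ratios of at least 2-fold in opposite directions under *gcn2* MO and under *perk* MO, as had 239 (1.25%) of all genes analysed. With no minimum on their size, the ratios were opposite in sign for 14 of the 67 genes and for 12857 of the 19194 genes analysed. Each condition has 1 library, and the difference was not tested. *tfap2d* had a log2 ratio of *tars*-/- to siblings of −1.75 under *gcn2* MO and of 2.35 under *perk* MO, a difference of −4.10. *fam198a* had 2.51 under *gcn2* MO and −1.19 under *perk* MO, a difference of 3.70. It was at 4.29 CPM in *tars*-/- *gcn2* MO and 1.84 CPM in sibling *perk* MO, against 0.303 to 0.526 CPM in the other 4 libraries. *FO818671.1* had 1.24 under *gcn2* MO and −1.04 under *perk* MO, a difference of 2.28. These genes are members of the closest pair, whose libraries enter both ratios.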

How the results depend on the processing

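With 1 library per condition, the spread between pools of embryos is unknown. The pair was the closest of the 15 under all settings tried. No paired analysis was possible because the comparison sets 1 library against 1 and rests on no test, and the labels carry no replicate numbers. A fit that pairs the genotypes over the 3 injection states asks another question and was not made. The counts depend on how low genes are treated. Genes 2-fold apart numbered 202 (147 higher, 55 lower) with a pseudocount of 0.1 CPM, 14 (12 and 2) with 2 CPM, 18 (14 and 4) with a mean of at least 5 CPM and 144 (91 and 53) with no abundance minimum. At a 1.5-fold threshold they were 759 (543 and 216) and at 3-fold 9 (8 and 1). Under TMM factors 68 were apart (42 higher, 26 lower), 62 of the 67 among them. Under DESeq2 size factors 69 were apart (44 and 25), with 64 of the 67. *eef1a1a*, *CABZ01035191.6* and *tfap2d* were among those that fell just short of 2-fold under TMM factors, with log2 ratios of 0.996, 0.985 and 0.982. Genes that kept their direction in both other pairs were 33 and 3 under pseudocounts of 0.1 and 2 CPM, 9 with at least 5 CPM, and 30 when any size in the other pairs counted. Genes that turned round in the swapped pair were 11, 0 and 0 in these first settings, 20 with any size and 2 at 2-fold. The 40 genes 1.5-fold higher in the closest pair among those 2-fold higher in the uninjected pair were 26 with a pseudocount of 2 CPM, an added comparison chosen after seeing the data. The synthetase median was 0.10 under TMM factors, and the AAR median stayed between 0.31 and 0.36. For members among the neighbours of *tars*, no alternative was run, since that count is void.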

Other observations

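Of the 7173 genes that averaged 20 CPM or more over the pair, 47 were at least 1.5-fold apart, 41 higher in *tars*-/- *gcn2* MO and 6 lower. Some of the 47 outside the AAR and synthetase lists, named after their values were seen, kept their direction in the other pairs. *mat2ab*, a methionine adenosyltransferase, was at 31.7 and 18.7 CPM in *tars*-/- *gcn2* MO and sibling *perk* MO, 145 and 15.25 CPM in *tars*-/- and sibling uninjected, and 162 and 11.2 CPM in *tars*-/- *perk* MO and sibling *gcn2* MO. *brf1a*, which like *bdp1* codes for a subunit of the RNA polymerase III factor TFIIIB, was at 26.7 and 17.6 CPM in *tars*-/- *gcn2* MO and sibling *perk* MO, 17.7 and 3.97 CPM in *tars*-/- and sibling uninjected, and 35.3 and 4.01 CPM in *tars*-/- *perk* MO and sibling *gcn2* MO. Both were higher in every mutant than in every sibling, except that *brf1a* was nearly level between sibling *perk* MO and *tars*-/- uninjected. *dao.1*, a D-amino acid oxidase, was lower in *tars*-/- in all 3 pairs, with log2 ratios of −0.70, −1.03 and −0.85 in the closest, uninjected and swapped pair.

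*optc*, which codes for the extracellular matrix protein opticin, was at 40.9 and 22.2 CPM in *tars*-/- *gcn2* MO and sibling *perk* MO, 8.26 and 4.5 CPM in *tars*-/- and sibling uninjected, and 12.3 and 7.10 CPM in *tars*-/- *perk* MO and sibling *gcn2* MO. It was higher in *tars*-/- within each pair, and the levels of both closest libraries exceeded those of the other 4.

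The log2 ratio in the closest pair moved with gene length, with a median of −0.03 over the shortest 1 in 10 of the genes analysed (up to 1058 bases) and of 0.14 over the longest 1 in 10 (from 5988 bases). The members had a median length of 2347 bases among the higher and 2016 bases among the lower ones, against 2541 bases for all genes. The part of length in the ratios of long genes such as *ttn.1*, *camta1b* and *ern1* was not tested.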
